A study of Homo sapiens with 6 samples.

Results

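The integrin and laminin subunits were 36 genes, chosen by symbol from the 19903 genes listed for each library: 17 integrin alpha chains, 8 integrin beta chains, 5 laminin alpha chains, 4 laminin beta chains and 2 laminin gamma chains. Other laminin and integrin chains are not analysed here. Messenger RNA was measured in 6 libraries from 3 human cell lines described as lung cancer lines at passage 5. In the malin group (3 libraries) the cells carried a vector for malin, the E3 ubiquitin ligase encoded by NHLRC1, and in the empty vector group (3 libraries) they carried the vector alone. Each group held 1 library labelled H2030, 1 from A549 and 1 from H1299, so neither vector was replicated within a line. A549 is a lung adenocarcinoma line, H2030 is another, and H1299 comes from a lymph node metastasis of a non-small-cell lung tumour. Whether the cells with a vector were clones or pools, and whether cultures were independent, is not stated in the labels, so p-values measure the spread between these libraries only.

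Integrins are receptors of the cell surface made of an alpha and a beta chain, and the alpha chain sets most of the preference for a ligand. Laminins are secreted trimers of an alpha, a beta and a gamma chain that form the sheet-like core of basement membranes, the layer on which lung epithelium rests. Laminin-binding integrins tie epithelial cells to that layer, RGD-binding integrins hold fibronectin and vitronectin, and collagen-binding integrins hold the stroma.

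NHLRC1 was higher with malin in each line. It stood at 3.69 FPKM with malin and 0.18 FPKM with the empty vector in the H2030-labelled pair, at 6.82 FPKM with malin and 1.21 FPKM with the empty vector in A549, and at 119.2 FPKM with malin and 2.85 FPKM with the empty vector in H1299. FPKM is the number of fragments scaled to transcript length and library total, so levels of different genes may be compared on it. Depth, estimated from the spacing of low values, was 8400000 to 10600000 fragments per library. The malin library labelled H2030 has a value column headed with the name of another line, HEK293T from human embryonic kidney, so its identity is uncertain. Of 8 epithelial markers, 5 reached 1 FPKM in both libraries labelled H2030, 6 in A549 and 3 in H1299. KRT7, a keratin of simple epithelia, was at 0.12 FPKM with malin and 0.66 FPKM with the empty vector in the H2030-labelled pair, at 1269 FPKM with malin and 1302 FPKM with the empty vector in A549, and at 1.24 FPKM with malin and 1.09 FPKM with the empty vector in H1299. KRT19, another such keratin, was listed at 0 in both libraries labelled H2030 and was at most 0.07 FPKM in H1299. In A549 it stood at 48.09 FPKM with malin and 41.97 FPKM with the empty vector. KRT8 and KRT18, the other keratins among these markers, were at 72.94 FPKM or more in every library. Both were lowest in the H2030-labelled pair, KRT8 at 77.56 and 88.15 FPKM and KRT18 at 72.94 and 83.22 FPKM, with malin first. EPCAM, also an epithelial marker, was highest in the H2030-labelled pair, at 5.41 FPKM with malin and 8.55 FPKM with the empty vector. It was at 0.95 and 1.75 FPKM in A549 and at 0.19 and 0.17 FPKM in H1299, in the same order. Of 7 lung lineage markers, NKX2-1 alone reached 1 FPKM in both libraries of a line, those labelled H2030 (3.78 FPKM with malin and 1.85 FPKM with the empty vector). None of the 7 did so in A549 or H1299. Of 7 immune markers, 2 (LYZ and CD68) reached 1 FPKM in both libraries labelled H2030, 3 (these and CD14) in A549 and 2 (LYZ and CD68) in H1299, while the defining marker PTPRC was at most 0.07 FPKM in every library. The summed immune markers were at 7.4 FPKM with malin and 7.19 FPKM with the empty vector in the H2030-labelled pair, at 16.27 FPKM with malin and 15.84 FPKM with the empty vector in A549, and at 55.63 FPKM with malin and 48.67 FPKM with the empty vector in H1299. CD68 alone made up most of these sums in H1299 (53.25 FPKM with malin and 45.69 FPKM with the empty vector) and in A549 (11.82 and 11.48 FPKM). In the H2030-labelled pair CD68 was at 1.72 and 2.13 FPKM, in the same order. Because of the uncertain identity, comparisons over lines are given with and without the H2030-labelled pair where they can be.

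A chain was called expressed in a line when it reached at least 1 FPKM in both libraries. By that rule the H2030-labelled libraries expressed 21 of the 36 chains, A549 expressed 16 and H1299 expressed 21. Of the 19903 genes, 12992 with malin and 13179 with the empty vector reached 1 FPKM in the single libraries labelled H2030. The numbers were 11861 and 11921 in A549, and 12039 and 11975 in H1299, in the same order. Fewer cells expressing a chain and less RNA per cell cannot be told apart in these bulk libraries. The lines shared 13: ITGA2, ITGA3, ITGA5, ITGA6, ITGAE, ITGAV, ITGB1, ITGB5, LAMA5, LAMB1, LAMB2, LAMC1 and LAMC3. The H2030-labelled libraries alone expressed ITGA7, ITGA8, ITGA2B and LAMA1, H1299 alone expressed ITGA10, ITGB3 and LAMA2, and A549 alone expressed 0. ITGA1, ITGA4 and LAMA4 were expressed in the H2030-labelled libraries and in H1299, and ITGB4 and LAMB3 in A549 and H1299. LAMA3 was expressed in the H2030-labelled libraries and in A549. ITGA9 and ITGAM reached 1 FPKM in some library but in both libraries of no line. The remaining 8 chains stayed under 1 FPKM in every library: ITGA11, ITGAL, ITGAX, ITGB2, ITGB6, ITGB7, ITGB8 and LAMB4. ITGB2 pairs with the alpha chains of leukocytes, and it stood at 0.03 to 0.31 FPKM. ITGB6 and ITGB8, partners of ITGAV that release latent TGF-beta, were at most 0.40 and 0.37 FPKM.

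**Figure D1:**
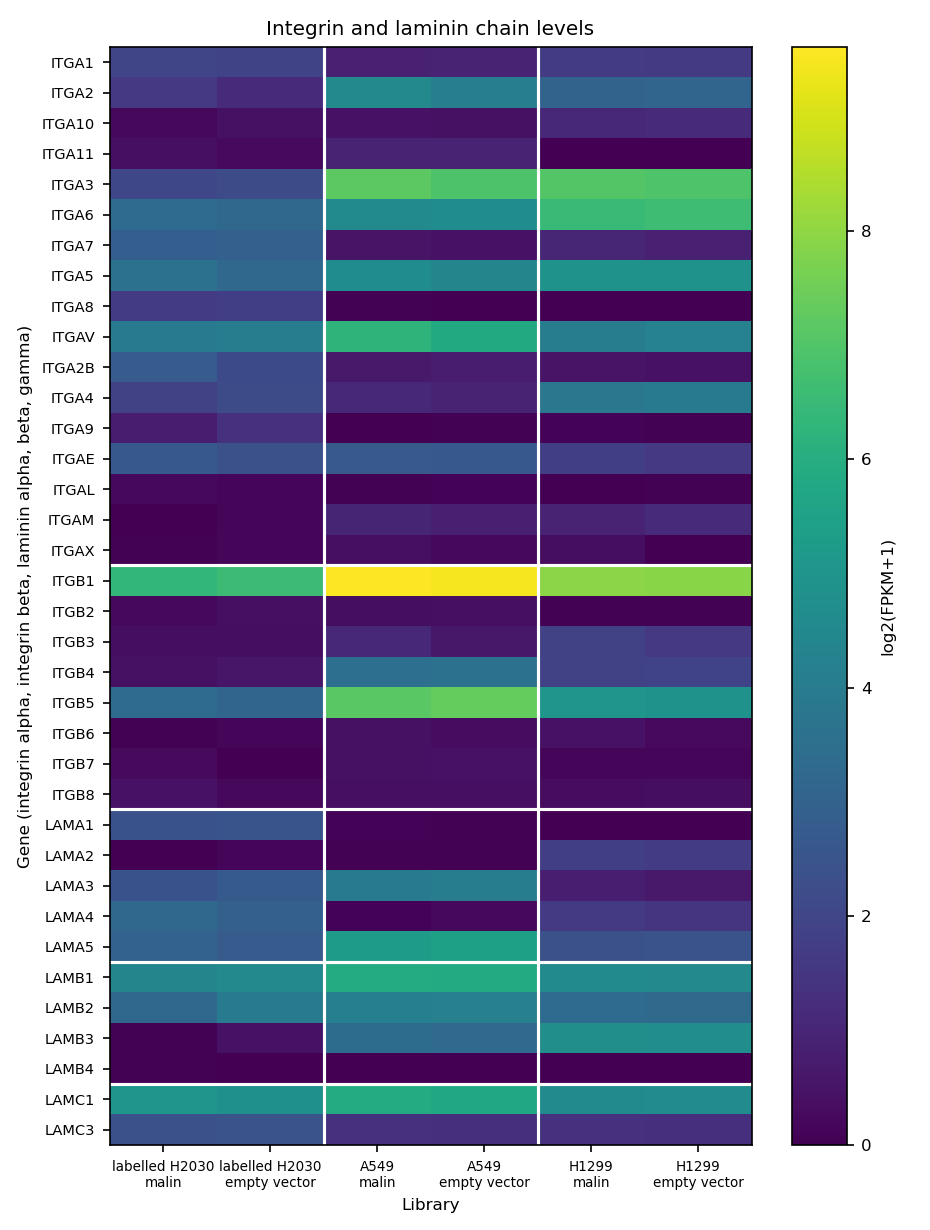
FPKM of the 36 integrin and laminin chains in each library, on a colour scale of log2(FPKM+1), with malin left of empty vector in each line and lines in the order labelled H2030, A549 and H1299. ITGB1 is the most abundant chain in all 6 libraries, and ITGA3 is at 120.77 FPKM or more in A549 and H1299 and at most 3.56 FPKM in the H2030-labelled libraries.

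LAMA3 and LAMB3 encode an alpha and a beta chain of the same epithelial laminin, laminin-332, yet they were expressed in different sets of lines. The third chain of that trimer is not analysed here. Their promoters are shown because they were the member promoters in the RefSeq table (33 windows for 26 of the 36 members) that held the AP-1 letters, which AP-1 factors can bind. Each sequence is the 250 bases before a RefSeq start on GRCh38.p14, 5′ to 3′ on the gene's own strand, and capitals mark TGANTCA (AP-1) and GGGCGG (GC box) on either strand.
LAMA3, chr18:23872770-23873019, plus strand: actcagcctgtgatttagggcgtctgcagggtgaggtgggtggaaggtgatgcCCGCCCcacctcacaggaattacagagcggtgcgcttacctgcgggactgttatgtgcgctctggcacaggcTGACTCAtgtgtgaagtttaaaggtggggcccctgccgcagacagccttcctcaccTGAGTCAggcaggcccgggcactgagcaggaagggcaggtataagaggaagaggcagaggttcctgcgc
LAMB3, chr1:209651375-209651624, minus strand: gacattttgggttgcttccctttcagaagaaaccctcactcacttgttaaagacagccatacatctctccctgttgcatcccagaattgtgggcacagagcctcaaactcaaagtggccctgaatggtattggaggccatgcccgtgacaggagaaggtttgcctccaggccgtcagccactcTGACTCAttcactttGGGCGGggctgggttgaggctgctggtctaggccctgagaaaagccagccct
The LAMA3 window held AP-1 letters beginning at positions -125 and -69 before the start and a GC box at -197. The LAMB3 window, 1 of 3 listed for that gene, held AP-1 letters at -67 and a GC box at -52. Both windows lie inside the annotated span of their gene (chr18:23689453-23955066 for LAMA3 and chr1:209614870-209652425 for LAMB3), so these starts are internal ones. Of all 35116 promoters of the table, 6.6% held the AP-1 letters and 42.6% the GC box letters. No motif overlapped another in these windows, and a match of letters is a description, not a binding site.

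LAMA3 stood at 4.32 FPKM with malin and 5.64 FPKM with the empty vector in the H2030-labelled pair, at 14.2 FPKM with malin and 15.41 FPKM with the empty vector in A549, and at 0.76 FPKM with malin and 0.57 FPKM with the empty vector in H1299. LAMB3 stood at 0.03 FPKM with malin and 0.4 FPKM with the empty vector in the H2030-labelled pair, at 9.5 FPKM with malin and 8.63 FPKM with the empty vector in A549, and at 25.55 FPKM with malin and 25.48 FPKM with the empty vector in H1299. A549 alone thus had both chains above 1 FPKM, H1299 had the beta chain with little of the alpha chain, and the H2030-labelled libraries had the reverse.

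Among the laminin-binding alpha chains, ITGA3 and ITGA6 were the abundant ones in A549 and H1299. ITGA3 stood at 3.27 FPKM with malin and 3.56 FPKM with the empty vector in the H2030-labelled pair, at 145.16 FPKM with malin and 120.77 FPKM with the empty vector in A549, and at 131.42 FPKM with malin and 123.53 FPKM with the empty vector in H1299. ITGA6 stood at 9.31 FPKM with malin and 8.29 FPKM with the empty vector in the H2030-labelled pair, at 22.54 FPKM with malin and 24.61 FPKM with the empty vector in A549, and at 91.34 FPKM with malin and 97.88 FPKM with the empty vector in H1299. ITGA7, the laminin receptor chain of muscle, was at 6.38 FPKM with malin and 6.64 FPKM with the empty vector in the H2030-labelled libraries and at most 1.06 FPKM elsewhere. ITGA6 exceeded ITGA3 in the H2030-labelled libraries, whereas ITGA3 exceeded ITGA6 in the other 4 libraries. The ratio of ITGA3 to ITGA6 was 0.351 with malin and 0.429 with the empty vector in the H2030-labelled libraries, 6.44 with malin and 4.91 with the empty vector in A549, and 1.44 with malin and 1.26 with the empty vector in H1299.

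RGD-binding chains were led by ITGAV, the vitronectin receptor chain, and ITGA5, the fibronectin receptor chain. ITGAV stood at 14.6 FPKM with malin and 15.96 FPKM with the empty vector in the H2030-labelled pair, at 75.49 FPKM with malin and 56.5 FPKM with the empty vector in A549, and at 15.89 FPKM with malin and 18.15 FPKM with the empty vector in H1299. ITGA5 stood at 10.89 FPKM with malin and 8.55 FPKM with the empty vector in the H2030-labelled pair, at 24.64 FPKM with malin and 20.31 FPKM with the empty vector in A549, and at 29.95 FPKM with malin and 28.97 FPKM with the empty vector in H1299. A549 was highest for ITGAV, while for ITGA5 the H2030-labelled libraries were lowest. ITGA2B, the fibrinogen receptor chain of platelets, stood at 5.83 FPKM with malin and 3.47 FPKM with the empty vector in the H2030-labelled pair, at 0.57 FPKM with malin and 0.7 FPKM with the empty vector in A549, and at 0.41 FPKM with malin and 0.38 FPKM with the empty vector in H1299. Its partner ITGB3 was at 0.28 FPKM in both libraries labelled H2030, and of the 4 platelet markers measured there 1 (GP1BA) reached 1 FPKM in both. ITGA8, another RGD-binding chain, was at 2.25 FPKM with malin and 2.47 FPKM with the empty vector in the H2030-labelled libraries and at most 0.03 FPKM elsewhere.

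Of the collagen-binding chains, ITGA2 was the highest in A549 and H1299, and ITGA1 was higher than it in the H2030-labelled libraries. ITGA2 stood at 2.03 FPKM with malin and 1.25 FPKM with the empty vector in the H2030-labelled pair, at 21.94 FPKM with malin and 16.11 FPKM with the empty vector in A549, and at 7.36 FPKM with malin and 7.7 FPKM with the empty vector in H1299. ITGA1 ranged from 0.83 to 2.98 FPKM over the libraries. ITGA4, which binds fibronectin and VCAM1, stood at 2.71 FPKM with malin and 3.66 FPKM with the empty vector in the H2030-labelled pair, at 1.08 FPKM with malin and 0.89 FPKM with the empty vector in A549, and at 12.84 FPKM with malin and 14.04 FPKM with the empty vector in H1299. ITGA9, a related chain that binds tenascin, stood at 0.72 FPKM with malin and 1.58 FPKM with the empty vector in the H2030-labelled libraries, and at 0 to 0.08 FPKM elsewhere. Both were thus low in A549, and ITGA4 was highest in H1299.

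ITGB1, the beta chain shared by most integrins, stood at 81.23 FPKM with malin and 94.79 FPKM with the empty vector in the H2030-labelled pair, at 779.49 FPKM with malin and 717.47 FPKM with the empty vector in A549, and at 245.33 FPKM with malin and 239.24 FPKM with the empty vector in H1299. ITGB5, a partner of ITGAV, stood at 9.3 FPKM with malin and 7.74 FPKM with the empty vector in the H2030-labelled pair, at 139.29 FPKM with malin and 159.99 FPKM with the empty vector in A549, and at 31.45 FPKM with malin and 28.98 FPKM with the empty vector in H1299. ITGB4, the partner of ITGA6 in hemidesmosomes, stood at 0.35 FPKM with malin and 0.5 FPKM with the empty vector in the H2030-labelled pair, at 10.35 FPKM with malin and 11.07 FPKM with the empty vector in A549, and at 2.76 FPKM with malin and 2.85 FPKM with the empty vector in H1299. Each of these beta chains was highest in A549 and lowest in the H2030-labelled libraries. ITGB1 made up 88.4% of the summed beta chain FPKM with malin and 91.3% with the empty vector in the H2030-labelled libraries, 83.7% with malin and 80.6% with the empty vector in A549, and 86.7% with malin and 87.4% with the empty vector in H1299. Divided by the sum of its alpha partners, ITGB1 came to 1.46 with malin and 1.71 with the empty vector in the H2030-labelled libraries, 2.66 with malin and 2.97 with the empty vector in A549, and 0.836 with malin and 0.812 with the empty vector in H1299.

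As shares of the summed alpha chain FPKM, laminin-binding chains made up 28.4% with malin and 29.1% with the empty vector in the H2030-labelled libraries, 55.9% with malin and 58.6% with the empty vector in A549, and 75.3% with malin and 74.6% with the empty vector in H1299. RGD-binding chains made up 50.2% with malin and 48.0% with the empty vector in the H2030-labelled libraries, 33.5% with malin and 31.1% with the empty vector in A549, and 15.6% with malin and 15.9% with the empty vector in H1299. In both classes the 3 lines differed by more than the 2 libraries of any line. These shares are descriptions of messenger RNA levels, and protein was not measured.

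**Figure D2:**
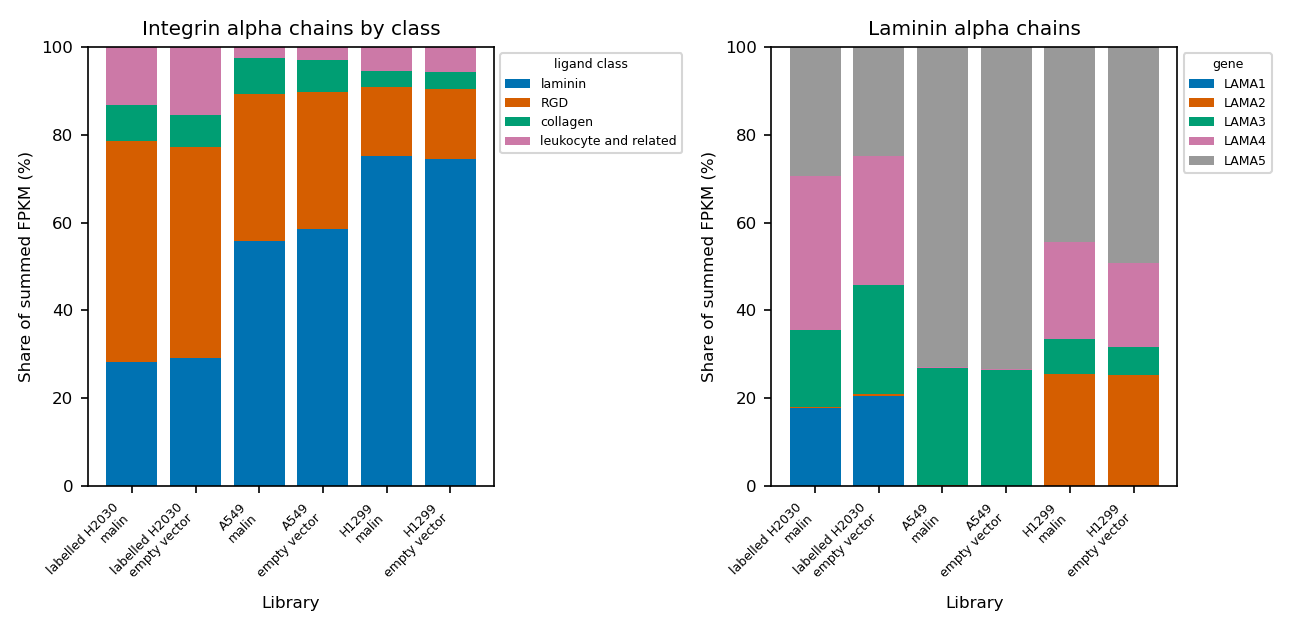
Share of the summed FPKM taken by each class of integrin alpha chain and by each laminin alpha chain, per library, with malin left of empty vector in each line. Laminin-binding integrin chains take 28.4% to 29.1% in the H2030-labelled libraries, 55.9% to 58.6% in A549 and 74.6% to 75.3% in H1299.

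Laminin chains LAMB1 and LAMC1, which are shared by many trimers, were at 19.67 FPKM or more in every library. LAMB1 stood at 19.67 FPKM with malin and 22.0 FPKM with the empty vector in the H2030-labelled pair, at 59.41 FPKM with malin and 57.29 FPKM with the empty vector in A549, and at 23.13 FPKM with malin and 22.24 FPKM with the empty vector in H1299. LAMC1 stood at 31.7 FPKM with malin and 27.29 FPKM with the empty vector in the H2030-labelled pair, at 59.8 FPKM with malin and 53.4 FPKM with the empty vector in A549, and at 23.23 FPKM with malin and 23.97 FPKM with the empty vector in H1299. A549 was highest for both. LAMB2, a beta chain of muscle and kidney laminins, stood at 8.47 FPKM with malin and 14.41 FPKM with the empty vector in the H2030-labelled pair, at 16.84 FPKM with malin and 17.21 FPKM with the empty vector in A549, and at 9.15 FPKM with malin and 9.12 FPKM with the empty vector in H1299.

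The laminin alpha chains expressed were not the same in the 3 lines. LAMA5, a laminin alpha chain widespread in adult basement membranes, stood at 7.18 FPKM with malin and 5.69 FPKM with the empty vector in the H2030-labelled pair, at 38.72 FPKM with malin and 42.91 FPKM with the empty vector in A549, and at 4.22 FPKM with malin and 4.46 FPKM with the empty vector in H1299. Of the summed laminin alpha FPKM it made up 29.4% with malin and 24.9% with the empty vector in the H2030-labelled libraries, against 72.9% with malin and 73.3% with the empty vector in A549. In H1299 it made up 44.4% with malin and 49.1% with the empty vector. The largest share in the H2030-labelled libraries was that of LAMA4, 35.0% with malin and 29.3% with the empty vector. LAMA4, a chain of vessel and mesenchymal laminins, was at 8.53 FPKM with malin and 6.69 FPKM with the empty vector in the H2030-labelled pair, at 0.07 FPKM with malin and 0.15 FPKM with the empty vector in A549, and at 2.09 FPKM with malin and 1.75 FPKM with the empty vector in H1299. Summed over 6 fibroblast markers, levels were at 16.11 FPKM with malin and 12.67 FPKM with the empty vector in the H2030-labelled pair, where COL1A1, COL3A1 and LUM reached 1 FPKM in both libraries, at 1.76 FPKM with malin and 2.41 FPKM with the empty vector in A549, and at 0.77 FPKM with malin and 0.36 FPKM with the empty vector in H1299. Their part in the LAMA4 levels was not tested. LAMA1, an embryonic chain, was at 4.35 FPKM with malin and 4.67 FPKM with the empty vector in the H2030-labelled libraries and at most 0.07 FPKM elsewhere. LAMA2, the muscle chain, was at 2.43 FPKM with malin and 2.29 FPKM with the empty vector in H1299 and at most 0.13 FPKM elsewhere. The least abundant chain of laminin-511 (LAMA5, LAMB1 and LAMC1) stood at 4.22 FPKM or more in every library. For laminin-111 (LAMA1 in place of LAMA5) that chain was at 4.35 FPKM with malin and 4.67 FPKM with the empty vector in the H2030-labelled libraries and at most 0.07 FPKM elsewhere. For laminin-211 (LAMA2) it was at 2.43 FPKM with malin and 2.29 FPKM with the empty vector in H1299 and at most 0.13 FPKM elsewhere. For laminin-411 (LAMA4) it was at 8.53 FPKM with malin and 6.69 FPKM with the empty vector in the H2030-labelled libraries. That was above the 7.18 and 5.69 FPKM of laminin-511 there. In A549 it was at most 0.15 FPKM, and in H1299 at 2.09 and 1.75 FPKM.

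The lines were compared on log2(FPKM+1) with limma, with vector as a covariate, over the 12184 genes that code for protein and averaged 1 FPKM or more, with Benjamini-Hochberg adjustment at 0.05. Of the 36 chains, 23 passed that filter. The spread in this fit is that between the malin and empty vector libraries of a line, so the p-values compare these lines as sampled and not lines of a kind. The other 13 chains, ITGA8 among them, were not tested.

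Against the mean of A549 and H1299, 7 of the 23 chains were higher and 13 lower in the H2030-labelled libraries. Over all genes tested 68.3% were called, 44.8% higher and 23.5% lower, so most genes were called in this comparison. Differences are on the log2(FPKM+1) scale, H2030-labelled minus the others. The laminin receptor chain ITGA3 was at -4.89 (SE 0.10, limma adjusted p = 5.72e-06), LAMB3 at -3.77 (SE 0.15), ITGB5 at -2.85 (SE 0.11) and ITGA2 at -2.32 (SE 0.15). ITGA6 was at -2.31, ITGB1 at -2.27 and ITGB4 at -2.23. The other lower chains were ITGA5, ITGAV, LAMA5, ITGB3, LAMB1 and LAMC1, between -1.32 and -0.31. Set against each line, LAMA5 and LAMC1 were lower than in A549 but higher than in H1299, and ITGAE, higher against that mean, was below both A549 libraries. ITGAV, at 14.6 and 15.96 FPKM in the H2030-labelled libraries, overlapped the 15.89 and 18.15 FPKM of H1299. LAMB1, at 19.67 and 22.0 FPKM in the H2030-labelled libraries, was close to the 23.13 and 22.24 FPKM of H1299. LAMA1 was 2.42 higher (SE 0.12), LAMA4 2.25 higher (SE 0.14), ITGA7 2.19 higher (SE 0.12) and ITGA2B 1.87 higher (SE 0.18). LAMC3, ITGA1 and ITGAE were 1.08, 0.70 and 0.34 higher. LAMA1, ITGA7 and ITGA2B averaged 1 FPKM or more in the H2030-labelled libraries alone, so they passed the filter through the group in which they are high and had to differ. ITGA4, LAMB2 and LAMA3 did not pass (limma adjusted p = 0.0591, 0.43 and 0.219).

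The median member difference was -0.78, against a median of 0.24 over all genes. With median-of-ratios scaling the all-gene median moved to -0.07, the all-gene calls to 3563 higher and 4403 lower, against 5461 and 2866 as deposited, and the member calls to 6 higher and 15 lower. ITGAE was at 0.06 and not called with that scaling (adjusted p = 0.694). It also missed the threshold without the malin library labelled H2030 (0.27, adjusted p = 0.117) and without any single A549 or H1299 library (0.29 to 0.38, adjusted p = 0.0951 to 0.189), differences of similar size to the 0.34 of all libraries. LAMC1 missed the threshold without any single A549 or H1299 library (-0.36 to -0.25, adjusted p = 0.0565 to 0.151), against -0.31 with all. The whole comparison rests on the pair whose malin library is headed with another line's name.

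**Figure D3:**
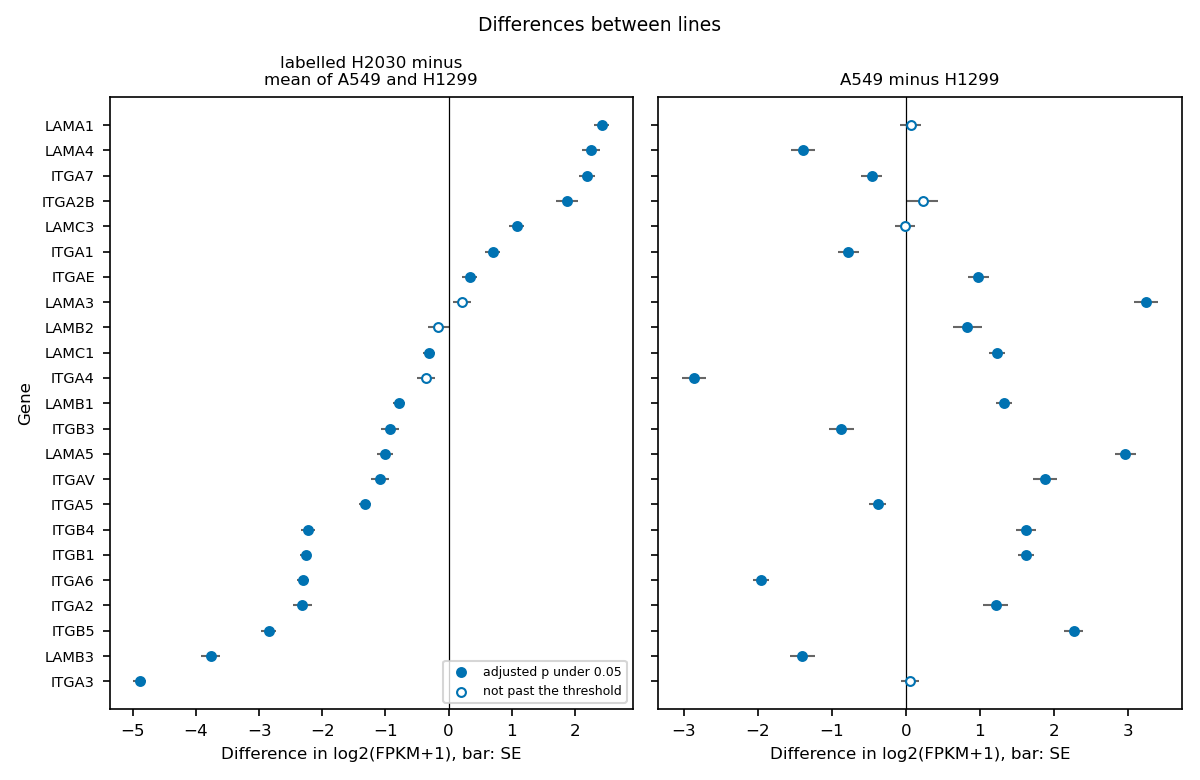
Differences between lines on the log2(FPKM+1) scale for the 23 tested chains, with standard errors from limma: labelled H2030 minus the mean of A549 and H1299, and A549 minus H1299. ITGA3 is at -4.89 in the H2030-labelled libraries, and LAMA3 and LAMA5 are 3.25 and 2.97 higher in A549 than in H1299.

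Between A549 and H1299, 11 chains were higher in A549 and 8 lower, where 61.6% of all genes were called, 27.2% higher and 34.5% lower. The laminin chains LAMA3 and LAMA5 were 3.25 higher (SE 0.16) and 2.97 higher (SE 0.15) in A549 on the log2(FPKM+1) scale, and LAMB1, LAMC1 and LAMB2 were 1.33, 1.23 and 0.83 higher. Of the receptor chains ITGB5 was 2.27 higher, ITGAV 1.88 higher, ITGB1 and ITGB4 1.62 higher each, ITGA2 1.22 higher and ITGAE 0.98 higher. Of the lower chains, as A549 minus H1299, ITGA4 was at -2.86 (SE 0.16), ITGA6 at -1.96 (SE 0.11), LAMB3 at -1.40 and LAMA4 at -1.39. ITGB3, ITGA1, ITGA7 and ITGA5 were at -0.87, -0.78, -0.46 and -0.38. ITGB3 averaged 1 FPKM or more in H1299 alone, through which it passed the filter. ITGA3 differed by 0.05 and did not pass (SE 0.12, limma adjusted p = 0.705), nor did LAMA1, ITGA2B and LAMC3. With the A549 and H1299 libraries alone the counts were again 11 higher and 8 lower.

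For 5 chains with smaller differences between A549 and H1299 the adjusted p passed 0.05 when a library was left out, in a fit with fewer libraries, and the differences kept their sign. Without any single one of the 4 libraries, ITGA5 was at -0.50 to -0.26 (limma adjusted p = 0.0941 to 0.331) and ITGA7 at -0.56 to -0.37 (0.103 to 0.243). With median-of-ratios scaling ITGA5 was at -0.29 (0.0903). ITGA1 was at -0.72 without the H1299 malin library (0.0521), and ITGB3 at -0.72 without the A549 empty vector library (0.0518). LAMB2 was at 0.67 without the A549 malin library (0.11) and at 0.65 without the H1299 empty vector library (0.122). The number of lower chains was 5 without the A549 empty vector library and 5 without the H1299 malin library.

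Other groups of genes of the same pathway were read off the same fit: intracellular adaptors that join integrins to actin, integrin ligands other than laminins, and proteins that bind laminin. Values in brackets are log2(FPKM+1) differences, and the counts stand beside the shares over all genes, 44.8% higher and 23.5% lower in the H2030-labelled libraries and 27.2% higher and 34.5% lower in A549 against H1299. Of 25 adaptors tested, 5 were higher and 17 lower in the H2030-labelled libraries, led by the actin cross-linkers ACTN4 (-3.06) and ACTN1 (-2.47), the scaffold paxillin, PXN (-2.14), and the tensin TNS4 (-2.02). In H1299 TNS4 was at 0.03 FPKM with malin and 0.05 FPKM with the empty vector, no higher than in the H2030-labelled libraries. Of 24 ligands, 9 were higher and 11 lower, led by SPP1, or osteopontin (-6.28), thrombospondin, THBS1 (-4.43), the leukocyte ligand ICAM1 (-2.92) and TGFB2 (-2.61). In those libraries SPP1 was at 0.27 FPKM with malin and listed at 0 with the empty vector. Of 24 laminin partners, 7 were higher and 14 lower, led by SDC2, a syndecan (3.89), NID1, which links laminin to collagen (3.23), the cytolinker PLEC (-2.79) and the netrin NTN4 (-2.33). NTN4 was at 1.57 FPKM with malin and 1.45 FPKM with the empty vector in the H2030-labelled libraries. It was at 2.88 and 2.73 FPKM in H1299 and at 43.85 and 38.49 FPKM in A549, in the same order. Between A549 and H1299, adaptors were 9 higher and 5 lower in A549, led by TNS3 (5.08), NEDD9 (4.21) and TNS4 (4.06). Ligands were 9 higher and 10 lower, led by fibronectin, FN1 (3.57), vitronectin, VTN (3.36), ICAM1 (-2.28) and CYR61 (-2.23). Laminin partners were 11 higher and 6 lower, led by the syndecan SDC1 (3.69), NTN4 (3.47), LARGE (1.80) and COL17A1 (-1.50). SDC2 averaged 1 FPKM or more in the H2030-labelled libraries alone, TNS4 and VTN in A549 alone and COL17A1 in H1299 alone, so they passed the filter through the line in which they are high and had to differ.

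Malin was compared with the empty vector over the 3 lines with line as a block. Of the 23 chains, 0 were called by limma, with 0 at an unadjusted p under 0.05. Of all genes 0% were called and 213 had an unadjusted p under 0.05. The smallest member adjusted p was 0.927, and the median member difference was 0.03, against -0.01 over all genes. ITGA5 and ITGAE were higher with malin in 3 of 3 lines, by means of 0.21 ± 0.14 and 0.15 ± 0.12 on the log2(FPKM+1) scale (SD, n = 3 lines), and ITGB4 was lower in 3 of 3, by a mean of -0.09 ± 0.06. None of these passed. Without the H2030-labelled pair, 0 chains were called, and 2, ITGA3 and ITGB3, had an unadjusted p under 0.05 with differences of 0.18 and 0.36, where 492 of the 12184 genes did and 1 was called. Of the adaptors, ligands and laminin partners 0 were called either, with 1 of each at an unadjusted p under 0.05.

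Within a line there was no test, and differences of at least 1.5-fold on FPKM+1 were counted. Ratios carry 95% exact binomial intervals, which cover counting error alone. In the H2030-labelled libraries, 1 chain was that much higher with malin and 1 lower, where 4.28% of all genes were higher and 7.33% lower. In A549 and H1299 0 chains were, where 0.55% and 0.337% of all genes were higher and 0.583% and 0.148% lower. At 2-fold 0 chains were higher or lower in any line, where 0.484% of all genes were higher and 1.6% lower in the H2030-labelled libraries, 0.0492% and 0.0657% in A549, and 0.0575% and 0.0246% in H1299. ITGA2B was 0.61 higher in the H2030-labelled libraries, with an FPKM ratio of malin to empty vector of 1.68 (interval 1.31 to 2.19), and LAMB2 was -0.70, with a ratio of 0.588 (0.521 to 0.662). ITGA9, which was below the filter, was at -0.58, with a ratio of 0.456 (0.327 to 0.645). For the 3 chains the A549 and H1299 intervals all included 1 where an interval could be computed. The member medians were -0.05, 0.05 and 0.04 in the H2030-labelled libraries, in A549 and in H1299, against all-gene medians of -0.03, 0 and 0.01.

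Beyond counting error, 8 chains were higher and 8 lower with malin in the H2030-labelled libraries, 7 and 3 in A549, and 3 and 2 in H1299, of 34 with an interval in each. By the same rule 21% of coding genes with an interval were higher and 26.8% lower in the H2030-labelled libraries, 9.4% and 8.62% in A549, and 6.05% and 5.35% in H1299. These intervals hold no spread between cultures. ITGA2 had a ratio of 1.62 (1.23 to 2.14) in the H2030-labelled libraries, 1.36 (1.27 to 1.46) in A549 and 0.956 (0.852 to 1.07) in H1299. ITGAV had a ratio of 0.915 (0.835 to 1.0), 1.34 (1.28 to 1.39) and 0.875 (0.807 to 0.95) in the same order. For ITGAV the ratios thus lay beyond counting error on different sides of 1 in A549 and H1299. For ITGA2 the H1299 interval included 1. LAMB3 in the H2030-labelled libraries had a ratio of 0.075 (0.00143 to 0.398), resting on an estimated 1 fragment with malin and 14 with the empty vector.

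**Figure D4:**
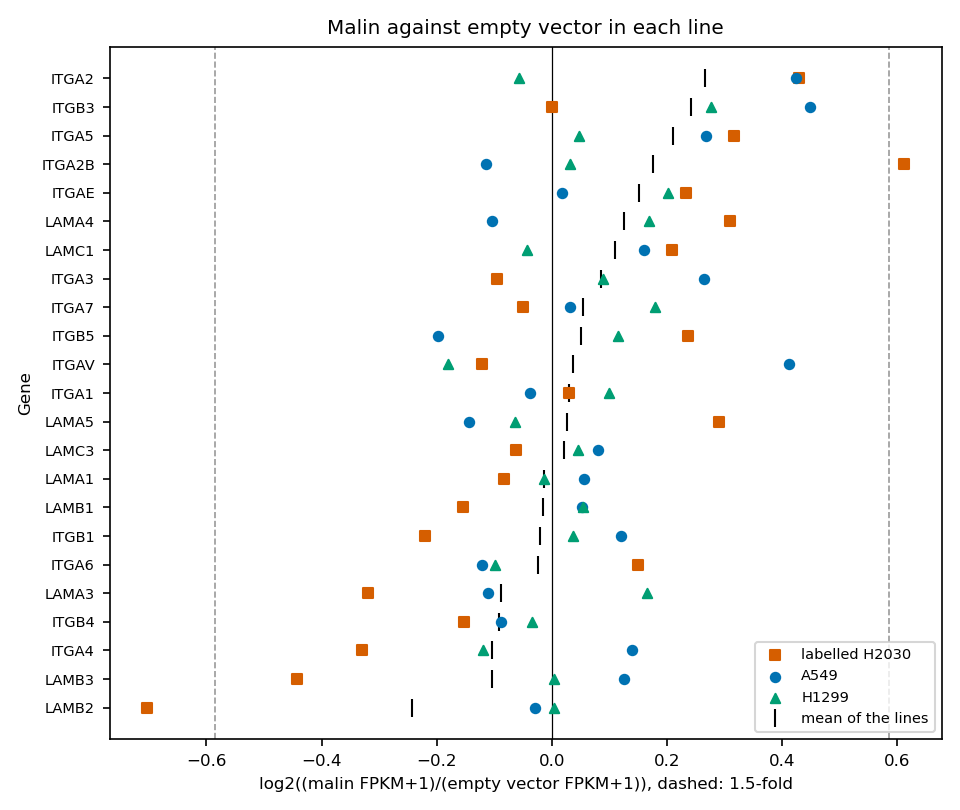
Difference between malin and empty vector on the log2(FPKM+1) scale for the 23 tested chains, with a symbol per line, a tick at the mean of the lines and dashed lines at 1.5-fold. Points scatter around 0, with ITGA2B at 0.61 and LAMB2 at -0.70 in the H2030-labelled libraries the farthest from it.

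By position on GRCh38.p14, LAMB1 (chr7:107923799-108003161) has LAMB4 as its neighbour at a gap of 8501 bases, and LAMB1 was at 19.67 FPKM or more in every library whereas LAMB4 was at most 0.04 FPKM. ITGA1 overlaps PELO, ITGA4 overlaps CERKL, ITGA7 overlaps BLOC1S1, BLOC1S1-RDH5 and TMT1B, and ITGAE overlaps HASPIN and P2RX5. Among the beta chains, ITGB2 overlaps ITGB2-AS1, ITGB4 overlaps GALK1 and ITGB7 overlaps ZNF740. The sources used here do not give the strand setting of the counting, so the values of these chains are uncertain.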

How the data were processed

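Each library came as 1 deposited table whose unit, per its header, is FPKM. The build hg38 and the tools Cufflinks, STAR, FastQC and cutadapt are listed, without versions, in the submitters' processing notes. Because FPKM is relative to a library's total, abundant genes can move every other value. Symbols that were blank or turned into dates (37) were repaired by identifier where possible (35), and gene types came from RefSeq GRCh38.p14, where 19770 genes had a match (17541 coding for protein) and 133 had none.

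The 36 members and all gene lists were chosen with earlier results of these data known. Vector and line were taken from the labels, and the 2 libraries of a line form a pair because they share that line. The limma fits (version 3.58.1, R 4.3.3) were made on log2(FPKM+1) by eBayes after lmFit with its trend option and left 2 residual degrees of freedom beside a prior of 3.9; the code was tested on simulated data. Chains with at least 10 FPKM in any library, or with at least 1 FPKM in any library and a 1.5-fold difference on FPKM+1 between the vectors of any line, were given in full; up to 4 genes of each list were named by absolute difference, and values of some genes so selected are not reported here. Fragment numbers were estimated from the step of low FPKM values of genes with transcripts of 600 to 2000 bases (length less 100); 78.0% to 81.1% of such values were within 0.2 fragments of a whole number. Lengths of 6 chains came from the longest coding transcript. Exact binomial intervals (95%) cover counting error only. The alternatives tried were no filter or a mean of at least 5 FPKM, pseudocounts of 0.1 and 5, median-of-ratios scaling, all gene classes, no intensity trend, no block or vector term, leaving out each line or library, and expression thresholds of 0.5 and 5 FPKM. The fit to the A549 and H1299 libraries alone was added after seeing the data. Python 3.11.15 was used with scipy 1.17.1, pandas 2.3.3, matplotlib 3.10.9 and numpy 2.4.6.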

Additional observations from a re-analysis of the deposited data

Results flagged for a closer look

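For 4 chains the FPKM ratio of malin to empty vector lay beyond counting error in opposite directions in different lines (5 of 97 pairs of lines with intervals). Of all coding genes with an interval, 21% were higher and 26.8% lower by that rule in the H2030-labelled libraries. The shares were 9.4% and 8.62% in A549, and 6.05% and 5.35% in H1299. The share of all genes with opposite directions was not computed, so these chains are not set apart from other genes. The difference between lines was not tested, because each line had 1 library per vector. Values are differences on the log2(FPKM+1) scale. ITGAV was at 0.41 in A549 and -0.18 in H1299. ITGB1 was at -0.22 in the H2030-labelled libraries and 0.12 in A549. ITGB5 was at 0.24 in the H2030-labelled libraries, -0.20 in A549 and 0.11 in H1299. LAMA5 was at 0.29 in the H2030-labelled libraries and -0.14 in A549. A549 is in each of these pairs. The opposite signs follow from the rule by which the pairs were picked.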

How the results depend on the processing

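Of the comparisons and counts, 12 moved under an alternative and 101 did not. No called value changed sign. With a mean of at least 5 FPKM required, 14 chains were tested, 0 were higher in the H2030-labelled libraries, and 4 were lower in A549 than in H1299. Leaving out single libraries gave 6 to 7 higher and 12 to 15 lower in the H2030-labelled libraries, and 5 to 8 lower in A549. The counts of 1.5-fold differences in the H2030-labelled libraries were 2 higher and 2 lower with a pseudocount of 0.1 and 0 and 0 with 5, and in A549 1 higher with 0.1. The member median in those libraries turned to 0.0088 with median-of-ratios scaling, against -0.05 as deposited. At 5 FPKM or more, 11 chains were expressed in the H2030-labelled libraries, 15 in A549 and 12 in H1299. A549 thus had the most at 5 FPKM, though the fewest at 1 FPKM. At 0.5 FPKM the numbers were 22, 22 and 24 in the same order. Without the replicate block (cell line) malin against empty vector called 0 chains, and without the H2030-labelled pair it called 1 gene of all tested. Over all genes, calls higher in A549 than in H1299 were 3311, and 1986 without the H1299 empty vector library, and calls in the H2030 comparison were as given with scaling. Of single-gene values, 27 lost their call and 6 moved. Depth limits chains at low FPKM, whose ratios can rest on few fragments, but the number of fragments also follows transcript length. ITGA1 in A549, at 0.83 FPKM with malin and 0.88 FPKM with the empty vector, had an estimated 92 and 97 fragments. LAMA4 in H1299, at 2.09 and 1.75 FPKM, had 51 and 46.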

Other observations

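Among other genes of the pathway, differences of at least 1.5-fold on FPKM+1 between malin and empty vector were mostly in the H2030-labelled libraries, where 7.33% of all genes tested were that much lower, and no test was possible within a line. Of 24 integrin ligands there, 5 were lower and 0 higher. CYR61, a matricellular ligand, was at 20.66 FPKM with malin and 44.99 FPKM with the empty vector, and FN1, or fibronectin, was at 10.55 FPKM with malin and 20.22 FPKM with the empty vector. MFGE8, CTGF and TNC were the other 3. CYR61 and CTGF were higher with malin in A549, by 0.53 and 0.52 on the log2(FPKM+1) scale. Of 24 laminin partners, those past 1.5-fold in the H2030-labelled libraries included NID2, which was higher, and LGALS3, which was lower, and of 25 adaptors ACTN1 was higher and TLN2, LPXN and PTK2B lower. In A549 the ligand VTN was the single gene of these lists past 1.5-fold, at 7.48 FPKM with malin and 12.19 FPKM with the empty vector, and in H1299 there were 0.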
